A study of Rattus norvegicus with 2 samples.

Results

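Compact strong H3K4me3 peaks are stretches of the rat genome where trimethylation of lysine 4 on histone H3 was called with a high score over a short distance. They were taken from the authors' peak list of the C6 rat glioma cell line as peaks on chromosomes 1 to 20 that were narrower than 2000 bp and scored 1000 or more. This gave 897 peaks of the 30172 in the list, and of the 29543 on chromosomes 1 to 20, a share of 3.04%. They were set against the 3621 wide strong peaks, which were 2000 bp or more at the same range of scores. Compact peaks were thus 19.9% of the 4518 strong peaks (interval 18.7 to 21.0%).

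C6 is an established glial tumour line, and the labels name no genotype, treatment or clone beyond it. The cells grew in medium with 10% serum and were fixed with 1% formaldehyde at 90% confluence. The chromatin was sonicated to about 300 bp and precipitated with 1 µg of antibody, and the input was C6 DNA with no antibody. There was 1 H3K4me3 library and 1 input library, so no replicate error exists and no test between conditions was possible. The score is the authors' own value per peak from the MACS peak caller, which compares reads of the H3K4me3 library with the input. It was taken to be on a scale of −10 log10 of the p-value, so a higher score stands for a smaller p. The list holds no read numbers, so the depth is unknown. All intervals are 95% intervals that cover counting error of the listed peaks only. Peaks in the same stretch of chromatin are not independent, so a repeat of the experiment could vary by more than these intervals.

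H3K4me3 is written by the SET1 and MLL methyltransferase complexes and is concentrated on the nucleosomes next to active transcription start sites, many of them in CpG islands. The nucleosomes on both sides of a start site often carry the mark while the start site itself is depleted of nucleosomes. The width of an H3K4me3 stretch varies between promoters, and very broad stretches are known from genes that define a cell type. Gene positions and genome sequence on the build of the list, rn4, were not used here, so the peaks are named by position, and neither genes nor sequences are given for them.

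The compact strong peaks were chosen by their width, score and chromosome, so these values describe them and support nothing. In width they ran from 704 to 1999 bp around a median of 1676 bp (quartiles 1462 and 1855 bp). The wide strong peaks had a median width of 3080 bp. Most compact peaks lay towards the upper limit of width: 21 were narrower than 1000 bp, 270 narrower than 1500 bp, and 0 narrower than 500 bp. Together they covered 1459 kb, against 12497 kb for the wide strong peaks. Their median score was 1208, with quartiles of 1078 and 1411, while that of the wide strong peaks was 1590. A score of 1500 or more was reached by 164 compact peaks, 2000 or more by 32 and 3000 or more by 4. The score of 3100, shared by 230 wide strong peaks, occurred at 0 of the 897 compact ones. A count of 0 here has an exact two-sided interval up to 0.410%, and the one-sided limit of 3 counts is 0.334%. Since other scores in the list lie above it, 3100 may be a stand-in value and not a measured rank, so the order of the wide peaks at the top of the scale is uncertain. Across the compact peaks the Spearman rho of width and score was 0.19, and across the wide strong peaks, those listed at 3100 included, it was 0.48. Both measures come from the same reads.

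**Figure D1:**
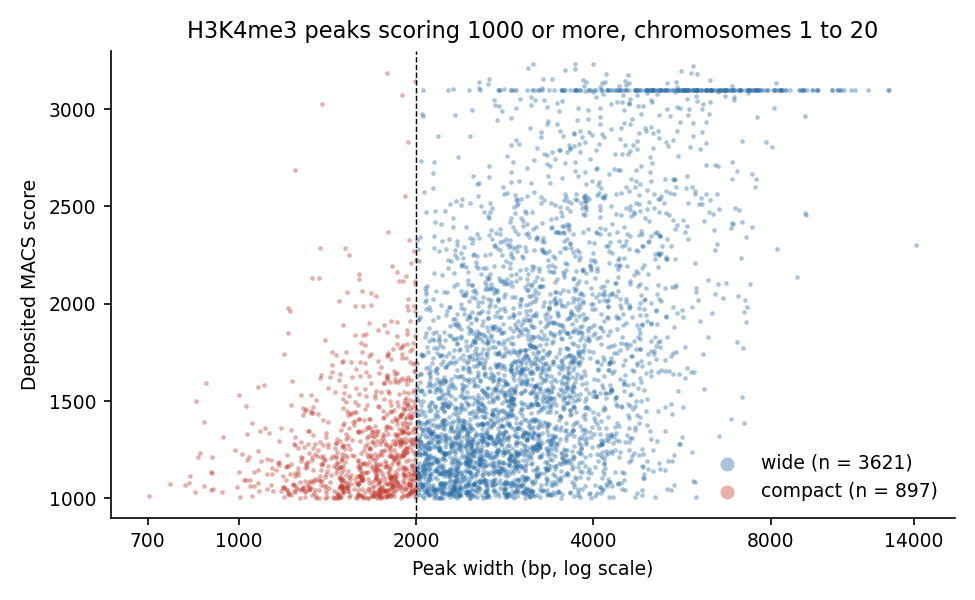
Width (bp, log scale) and deposited MACS score of each H3K4me3 peak scoring 1000 or more on chromosomes 1 to 20, with 897 compact peaks in red and 3621 wide peaks in blue, and a dashed line at 2000 bp. The compact peaks are densest near the line and near the lowest scores, and the row of wide peaks at a score of 3100 has no compact counterpart.

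Peaks just inside and just outside the limits are given as a description. The widest compact peaks were 1999 bp on chromosome 12 at 14781924 to 14783922 (score 1225.56) and 1998 bp on chromosomes 20 (37810030 to 37812027, score 1362.61) and 13 (86991687 to 86993684, score 1288.65). The first peak beyond the limit was 2000 bp on chromosome 7 at 20085865 to 20087864, where the score was 1237.03. The next, both of 2001 bp, scored 1303.76 (155031256 to 155033256 of chromosome 5) and 1298.75 (10959926 to 10961926 of chromosome 7). The lowest-scoring compact peaks had scores of 1000.06 (chromosome 2 at 199012884 to 199014358), 1000.31 (chromosome 10 at 103279889 to 103281290) and 1000.36 (chromosome 2 at 202141303 to 202142669). Just under the limit were scores of 999.63 (chromosome 8 at 111411153 to 111413116) and 998.29, the latter at 11772153 to 11774128 of chromosome 20 and 5747910 to 5749826 of chromosome 12. Another peak lay within 1 kb of 51.5% of the 165 strong peaks from 1900 to under 2000 bp and of 46.6% of the 174 from 2000 to under 2100 bp. The intervals of these shares, 43.6 to 59.4% and 39.0 to 54.3%, overlapped. Among peaks narrower than 2000 bp, the share was 66.7% for the 336 scoring 900 to under 1000 and 65.2% for the 273 scoring 1000 to under 1100. No step at either limit was visible in these shares.

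Most compact strong peaks had a close neighbour, and they had one more often than wide strong peaks. Distances were measured from edge to edge, and any listed peak counted as a neighbour. Another peak lay within 1 kb of 603 of the 897 compact peaks, a share of 67.2% with an exact Clopper-Pearson interval of 64.0 to 70.3%. Among all peaks on chromosomes 1 to 20 the share was 48.7%. Among the wide strong peaks it was 49.6% (1796 of 3621, interval 48.0 to 51.2%), close to that background. The difference between compact and wide was 17.6 percentage points, with a Newcombe interval of 14.1 to 21.0. The compact share was the higher of the 2 on 20 of 20 chromosomes, where it ran from 56.9 to 83.3% for compact and from 43.0 to 54.2% for wide peaks. Widths and gaps come from the same peak calls and are not separate measurements, and the part of the caller's settings in this difference was not tested.

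The excess lay in peaks flanked on 1 side. A neighbour on 1 side only was found for 479 compact peaks (53.4%, interval 50.1 to 56.7%) and 1340 wide ones (37.0%, interval 35.4 to 38.6%), a difference of 16.39 percentage points (interval 12.76 to 19.99), while the share of all peaks was 41.1%. Neighbours on both sides were found for 124 compact peaks (13.8%) and 456 wide ones (12.6%). This difference was 1.23 percentage points with an interval of -1.15 to 3.86, so it was not distinguishable from 0 by counting error. Of all peaks, 7.54% had neighbours on both sides.

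The share with a neighbour was highest for the narrowest strong peaks. It was 95.2% for the 21 strong peaks under 1000 bp (interval 76.2 to 99.9%), 91.5% for the 47 from 1000 to under 1200 bp and 82.6% for the 121 from 1200 to under 1400 bp. It was 78.7% for the 174 from 1400 to under 1600 bp (interval 71.9 to 84.6%), 57.6% for the 236 from 1600 to under 1800 bp (interval 51.0 to 64.0%) and 56.0% for the 298 from 1800 to under 2000 bp. Among the compact peaks the share thus fell with each step in width, most of all at about 1600 bp. Beyond 2000 bp it went on to a low of 44.2% for the 807 peaks from 2500 to under 3000 bp (interval 40.8 to 47.7%). It was higher again in the widest classes, at 56.5% for the 685 peaks from 4000 to under 6000 bp (interval 52.7 to 60.2%) and 63.0% for the 192 of 6000 bp or more (interval 55.8 to 69.9%). The wide group therefore mixes classes with low and high shares.

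**Figure D2:**
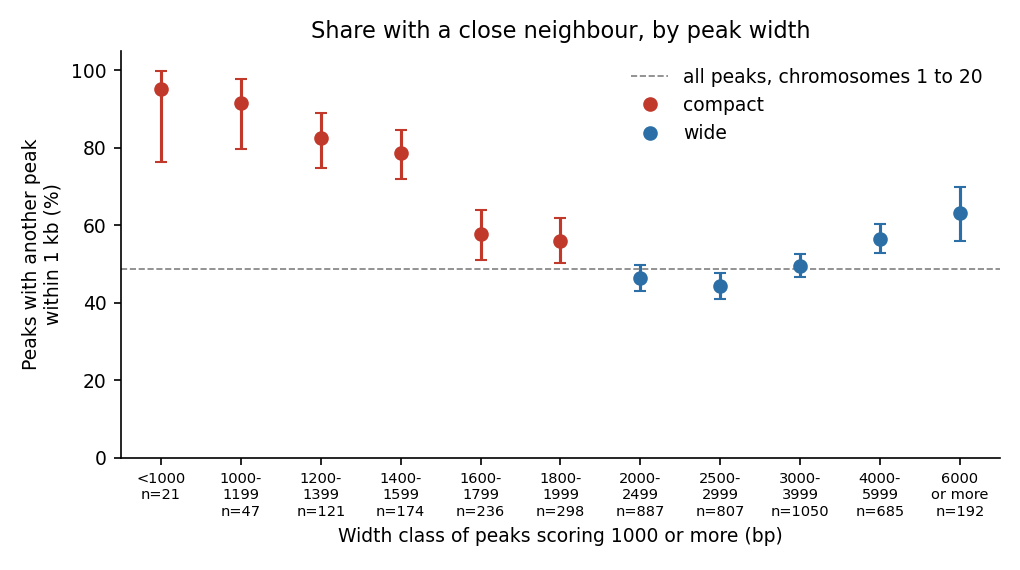
Share of strong H3K4me3 peaks (%) with another listed peak within 1 kb, by width class (bp), with the number of peaks in each class; bars are exact 95% intervals and the dashed line is the 48.7% of all peaks on chromosomes 1 to 20. Points fall from 95.2% under 1000 bp to 44.2% from 2500 to under 3000 bp and rise to 63.0% at 6000 bp or more.

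The direction was the same in each of 3 score classes. From 1000 to under 1500 a neighbour was found for 66.8% of 733 compact peaks (interval 63.3 to 70.3%) and 47.4% of 1594 wide ones (interval 45.0 to 49.9%). From 1500 to under 2000 the shares were 68.2% of 132 (interval 59.5 to 76.0%) and 47.5% of 963 (interval 44.3 to 50.7%). At 2000 or more they were 71.9% of 32 compact peaks and 54.8% of 1064 wide ones. The intervals of compact and wide did not overlap in the lower 2 classes. In the highest class they did, at 53.3 to 86.3% and 51.7 to 57.8%.

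Narrow peaks of middling score had close neighbours as often as the compact strong ones, while the weakest had them less often. Of the peaks narrower than 2000 bp, the 10370 that scored 50 to under 100 had a neighbour in 33.3% of cases, the 6037 from 100 to under 250 in 52.0% and the 3525 from 250 to under 500 in 64.8%. From 500 to under 750 the share was 67.8% (1828 peaks) and from 750 to under 1000 it was 67.2% (1038 peaks, interval 64.3 to 70.1%), next to 67.2% of the 897 compact strong peaks. The relation to score differed by width. Among peaks from 1000 to under 1500 bp the share was 36.4% at scores of 50 to under 100, 83.1% from 750 to under 1000 and 84.5% from 1000 to under 1500. Among peaks from 1500 to under 2000 bp the same score classes had 39.5%, 53.8% and 57.9%, and the 133 that scored 1500 or more had 66.2% (interval 57.5 to 74.1%).

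Most neighbours of compact strong peaks scored under 1000, as did most listed peaks, and many lay at short gaps. The 603 peaks with a neighbour formed 727 pairs of a compact peak and a neighbour, 361 with the neighbour at the lower and 366 at the higher coordinate. The median gap was 188 bp, with quartiles of 86 and 403 bp. A gap under 200 bp was found in 374 pairs (51.4%, interval 47.7 to 55.1%), and 33 pairs (4.54%) had a gap of 800 to 1000 bp. The neighbours of wide strong peaks had a median gap of 218 bp over 2252 pairs, 47.2% of them under 200 bp (interval 45.2 to 49.3%). These intervals overlapped.

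The neighbour of a compact peak had a median score of 364.9, with quartiles of 117.3 and 800.1, and a median width of 1153 bp. It scored under 1000 in 593 pairs (81.6%) and under 100 in 151 (20.8%). Of the 29543 peaks that could be neighbours, 25025 scored under 1000, as did 11980 of the 14379 that had a neighbour themselves. The share under 1000 was thus close to that of the list and does not set these neighbours apart. The lower quartile of score was 74.8 over all 29543 peaks and 103 over those 14379. For wide strong peaks the neighbour had a median score of 204.1, and 29.3% scored under 100. A neighbour with a score above that of the peak itself was found in 81 of the compact pairs (11.1%, interval 8.95 to 13.7%) and 97 of the wide pairs (4.31%, interval 3.51 to 5.23%). The compact peaks score lower on the whole, which bears on this comparison. A neighbour was wider than the compact peak in 248 pairs (34.1%), and in 175 of these it scored lower, so the higher score sat on the shorter stretch. Only values of the pair are compared here, and width and score of the compact peak are set by the rule.

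**Figure D3:**
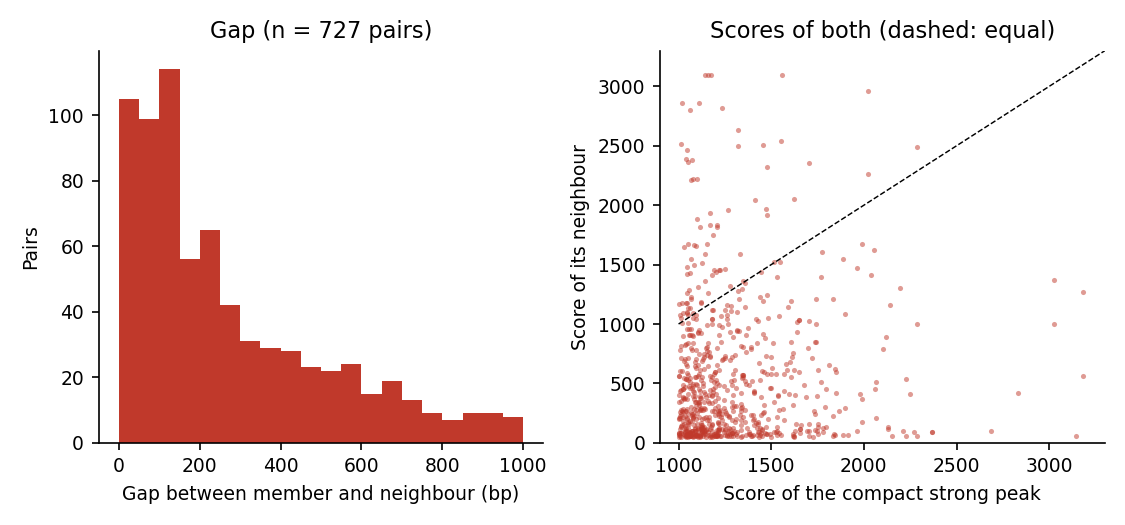
Left, number of pairs of a compact strong peak and a neighbour within 1 kb by their gap (bp, bins of 50 bp); right, MACS score of the neighbour against that of the compact peak, with a dashed line where both are equal. Of 727 pairs, 374 have a gap under 200 bp, and 81 lie above the line.

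Some compact strong peaks neighboured each other. In 24 places 2 of them lay next to each other within 1 kb, with a median gap of 122 bp, which involved 48 compact peaks. A compact strong peak was thus the neighbour in 6.60% of the 727 pairs, with each of the 24 places counted from both sides. Compact strong peaks were 3.04% of all peaks on chromosomes 1 to 20. A neighbour always has a neighbour itself, and compact strong peaks were 603 of the 14379 peaks that had one. The excess over this nearer base is smaller than over the 3.04% and was not tested. The pair on chromosome 1 at 95905698 to 95907371 and 95907414 to 95908968 had scores of 2053.12 and 1625.14 and a gap of 42 bp. A wide strong peak was the neighbour in 86 pairs (11.8%), near the share of wide strong peaks in the list. They were 3621 of the 29543 peaks on these chromosomes and 1796 of the 14379 with a neighbour. Another pair lay on chromosome 8, with peaks at 125581053 to 125582273 (score 1965.00) and 125582293 to 125584262 (score 1470.59) and a gap of 19 bp. The pairs named on chromosomes 1 and 8 were chosen after their values were seen.

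Joining peaks up to 1 kb apart turned most compact strong peaks into parts of longer stretches. The 897 peaks fell into 869 joined regions, of which 28 held 2 of them. The joined region had a median width of 2894 bp and quartiles of 1904 and 4178 bp, against a median of 4102 bp for wide strong peaks. It stayed narrower than 2000 bp for 308 compact peaks (34.3%, interval 31.2 to 37.5%). Among all peaks on chromosomes 1 to 20 this share was 47.3%, and most of those are weaker, narrower peaks. It was 4000 bp or wider for 243 compact peaks (27.1%), next to 51.7% of wide strong peaks and 22.5% of all peaks. The joined width includes the peak's own width, by which the rule separates compact from wide. Both comparisons with wide strong peaks thus follow partly from the rule. Before any joining, 685 wide strong peaks were 4000 to under 6000 bp wide and 192 were 6000 bp or more. Of the 603 compact peaks with a neighbour, 589 (97.7%) lay in a joined region of 2000 bp or more. Their median width was 1602 bp and that of their neighbours 1153 bp, so this share follows largely from the widths. The joined regions held exactly 2 peaks for 386 compact peaks (43.0%) and 3 or more for 217 (24.2%), against 29.9% and 19.7% of wide strong peaks and 30.5% and 18.1% of all peaks.

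The compact peak was the best-scoring peak of its joined region for 805 of 897 (89.7%, interval 87.6 to 91.7%), and 294 of these 897 peaks were alone in it. Among all peaks on chromosomes 1 to 20 the share was 71.9%. For wide strong peaks it was 96.5%, of which 1825 of 3621 were alone in their region. A lone peak is the best by construction, and the rule chose the peaks by score, so these shares are a description and were not compared. Applied to joined regions, with the best score of each, the same limits left 308 of 4297 strong regions (7.17%). Of these, 294 were single peaks and 14 held 2 or more. Compact strong stretches thus numbered 308 when read by region and 897 when read by peak. Joining can only widen a stretch, so the number could not rise, and only the size of the drop is informative.

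A minority of compact strong peaks stood alone. For the 294 without a peak within 1 kb, the nearest peak lay a median of 15878 bp away, and for the 1825 such wide peaks 14019 bp. Compact peaks without a neighbour had a median width of 1777 bp (quartiles 1636 and 1909 bp) and a median score of 1220. Those with a neighbour had 1602 bp (quartiles 1375 and 1818 bp) and 1203. The narrower ones were thus those with neighbours, while the median scores lay close together. The nearest peak was over 10 kb away for 183 compact peaks (20.4%, interval 17.8 to 23.2%) and for 29.9% of wide strong peaks (interval 28.4 to 31.4%), next to 31.3% of all peaks on chromosomes 1 to 20. It was over 100 kb away for 19 compact peaks (2.12%) and for 128 wide ones (3.53%), a difference of -1.42 percentage points with an interval of -2.42 to -0.126. Of all peaks, 4.83% were that far from the next. A peak with a neighbour within 1 kb cannot be counted at these distances. These differences thus follow largely from the share with a close neighbour. Of peaks without one, 183 of 294 compact and 1081 of 1825 wide had the nearest peak over 10 kb away. Over 100 kb the counts were 19 of 294 and 128 of 1825.

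Pooled over scores, local peak density differed little between compact and wide strong peaks. Density was taken as the number of other peaks whose midpoint lay within 100 kb to each side. The median was 7 for compact peaks (interval 6 to 7, quartiles 4 and 11) and 6 for wide strong peaks (interval 6 to 7, quartiles 3 and 11). For all peaks on chromosomes 1 to 20 it was also 6. The means were 8.18 and 7.76, and 7.10 over all peaks. With the wide peaks weighted to the chromosomes of the compact ones, their mean was 7.82. On 14 of 20 chromosomes the compact mean was the higher of both. By score, the compact and wide means were 8.07 and 7.21 from 1000 to under 1500, and 8.83 and 7.53 from 1500 to under 2000. At 2000 or more they were 8.12 over 32 compact peaks and 8.80 over 1064 wide ones. This turned order rests on few compact peaks and was not tested. The medians were equal at 7 for scores of 1500 or more, and at 6 without chromosomes 10 and 12.

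The difference in density was smaller when close peaks were counted once. Counting other joined regions within 100 kb in place of other peaks, both medians were 4, and the means were 4.93 for compact and 4.82 for wide peaks. The compact mean was then the higher on 12 of 20 chromosomes. Compact peaks with a neighbour had a mean of 9.03 other peaks within 100 kb, and those without had 6.44. The corresponding values for wide peaks were 8.92 and 6.62. The neighbour within 1 kb is itself counted among these other peaks, which raises the first value of each by construction. As other joined regions, the means were 5.12 and 4.54 for compact and 5.03 and 4.62 for wide peaks. Within either kind, the means of compact and wide peaks lay closer to each other than to those of the other kind. Other strong peaks within 100 kb numbered 1.60 on average around compact and 1.37 around wide strong peaks, with a median of 1 in both.

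**Figure D4:**
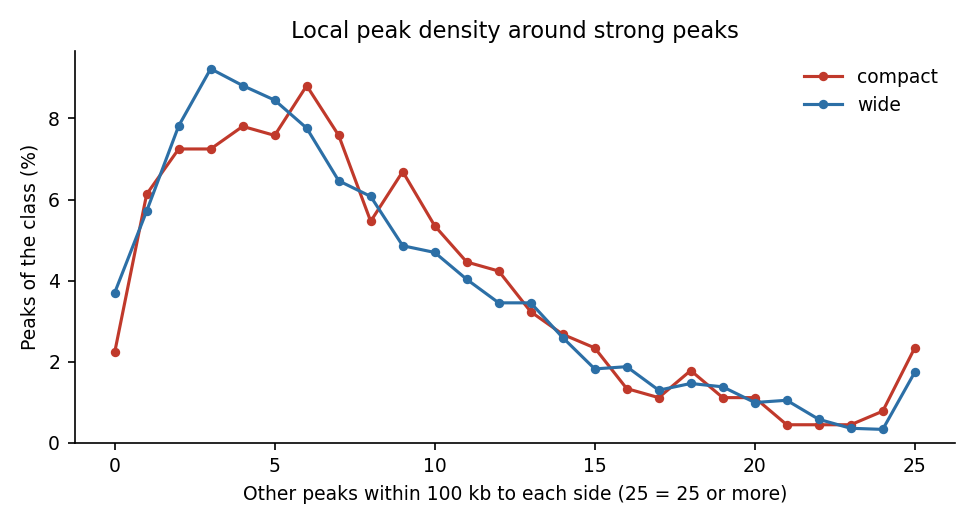
Share of compact (red) and wide (blue) strong H3K4me3 peaks (%) by the number of other peaks within 100 kb to each side, with 25 or more in the last point. The curves run close together, with medians of 7 and 6.

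By chromosome, the compact share of strong peaks was highest on chromosome 20 and lowest on chromosome 13. Chromosome 20 had 40 compact and 94 wide strong peaks, a share of 29.9% with an interval of 22.3 to 38.4%. Chromosome 17 followed with 39 and 102, a share of 27.7% (interval 20.5 to 35.8%). Chromosome 13 had 15 and 109, a share of 12.1% (interval 6.93 to 19.2%). These were the 3 chromosomes whose interval left out the pooled share of 19.9%. The intervals were not adjusted for the 20 chromosomes looked at. Chromosome 18 was next lowest at 13.1% (interval 7.69 to 20.4%).

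In number, chromosomes 1 and 10 held the most compact strong peaks. Chromosome 1 held 104 compact strong peaks, 3.02% of its 3442 peaks and 18.3% of its strong ones. Chromosome 10 held 95, or 3.82% of its 2486 peaks and 21.6% of its strong ones. Chromosome 12, where peaks were most densely packed at 26.0 per Mb between its first and last peak, held 39, or 19.1% of its strong peaks. Chromosomes 2 and 15, with 7.47 and 7.96 peaks per Mb, had 19.1% and 24.0%. Over the 20 chromosomes the Spearman rho of peak density and the compact share of strong peaks was 0.07, and with the compact share of all peaks it was 0.29. These are descriptions over 20 points, and the number of peaks enters both the density and the latter share. Median widths of compact peaks ran from 1474 bp on chromosome 11 to 1804 bp on chromosome 13, and median scores from 1137 on chromosome 19 to 1293 on chromosome 12.

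**Figure D5:**
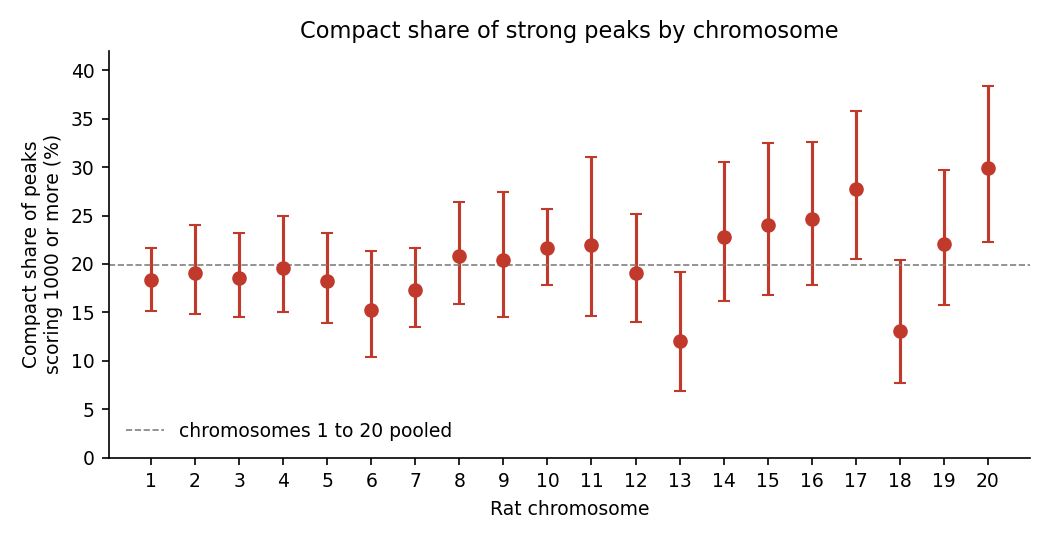
Compact share (%) of H3K4me3 peaks scoring 1000 or more on each rat chromosome, with exact 95% intervals and a dashed line at the pooled 19.9%. The intervals of chromosomes 17 and 20 lie above the line and that of chromosome 13 below it.

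The share of compact peaks with a neighbour also varied between chromosomes, and it was highest on chromosome 11. Of its 24 compact strong peaks, 20 had a peak within 1 kb (83.3%), against 51.8% of its 85 wide ones. Chromosomes 13 and 16 followed at 80.0%, with 12 of 15 and 28 of 35. The lowest shares were on chromosome 2, with 33 of 58 (56.9%), and chromosome 1, with 62 of 104 (59.6%). These orders rest on small numbers per chromosome and were not tested.

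The narrowest compact strong peaks sat beside other peaks. The narrowest was 704 bp on chromosome 1 at 139134566 to 139135269, with a score of 1010.67. It lay 119 bp from a peak that scored 711.32 and was the best of 3 peaks in a region of 4040 bp. The next was 765 bp on chromosome 3 at 118886512 to 118887276 (score 1072.11), in a region of 2683 bp with 3 peaks. A peak of 810 bp on chromosome 20 at 5211304 to 5212113 (score 1066.26) lay 200 bp from another compact peak, which was 1797 bp wide and scored 1543.31.

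On chromosome 8 the peaks at 93792599 to 93793420 (822 bp) and 47692363 to 47693188 (826 bp) scored 1078.97 and 1114.55. The former was the best of 3 peaks, and the latter came second of 4. A peak of 842 bp on chromosome 9 at 67968224 to 67969065 scored 1035.23 and came second of 3. The peak of 846 bp on chromosome 10 at 4403390 to 4404235 had the highest score of these 10, 1497.98, and led 4 peaks over 5201 bp.

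The remaining 3 each shared a region with 1 other peak. They were 852 bp on chromosome 7 at 121573380 to 121574231 (score 1214.98), 859 bp on chromosome 1 at 42111607 to 42112465 (score 1233.65) and 872 bp on chromosome 12 at 36126712 to 36127583 (score 1392.87). The region on chromosome 7 was 1665 bp wide and so stayed under 2000 bp. All 10 of the narrowest had a neighbour within 1 kb, 7 of them as the best peak of 2 to 4 and 3 as the second best.

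The 10 highest-scoring compact peaks held 7 with a close neighbour and 3 that stood alone. The highest, 3183.12, belonged to a peak of 1783 bp on chromosome 7 at 67646795 to 67648577. It led a region of 4 peaks over 7891 bp, and its nearest neighbour, 76 bp away, was 3165 bp wide and scored 1271.09. The second, 3142.73, was on chromosome 20 at 5262887 to 5264879, 78 bp from a peak of 537 bp that scored 53.59. The fourth, 3024.96, was 1387 bp wide, on chromosome 4 at 6118104 to 6119490, and its neighbour 157 bp away was 2681 bp wide with a score of 1366.45.

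Of those that stood alone, the strongest scored 3074.01 on chromosome 14 at 104433378 to 104435270, where the nearest peak was 36957 bp away. The others scored 2554.08 on chromosome 6 (27209857 to 27211772, nearest peak 84100 bp away) and 2328.48 on chromosome 18 (24683802 to 24685750, nearest peak 74672 bp away). In this order the lone peaks were 1893, 1916 and 1949 bp wide, near the upper limit of the rule. Within 100 kb they had 1, 1 and 3 other peaks. High scores at widths just under the limit thus also occurred in sparse surroundings. The other 4 scored 2831.76 (226945907 to 226947842 of chromosome 2), 2688.80 (75900980 to 75902226 of chromosome 4, 1247 bp wide), 2368.14 (66695939 to 66697730 of chromosome 8) and 2286.71 (45477421 to 45478794 of chromosome 14, 1374 bp wide). Their nearest neighbours were 452, 930, 8 and 375 bp away and scored 419.52, 101.24, 92.39 and 998.15. All 10 were the best peak of their joined region.

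The most isolated compact peak had no other peak for 684864 bp. It spanned 32085671 to 32087561 of chromosome 4, 1891 bp, and scored 1347.76. Others were on chromosome 3 at 133735078 to 133736784 (score 1161.09, 534718 bp) and 101606894 to 101608788 (1290.11, 298551 bp), chromosome 8 at 30148730 to 30149921 (1058.66, 465254 bp) and chromosome 15 at 58936482 to 58937988 (1056.60, 367252 bp). The nearest peak scored 61.61 to 113.80 in 4 of these 5 cases and 920.60 in the other, that on chromosome 3 at 101606894.

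The fullest surroundings were those of 2 compact peaks of chromosome 16, at 19180828 to 19182088 (score 1259.96) and 19171079 to 19172576 (1051.59), each with 31 other peaks within 100 kb. With 30 other peaks followed chromosome 20 at 5212314 to 5214110 (1543.31) and 5174812 to 5176785 (1356.74), and chromosome 19 at 25018912 to 25020366 (1257.34). The narrow peak of chromosome 20 at 5211304 also had 30. The chromosome 20 peaks had 7 to 9 other strong peaks within 100 kb, and that on chromosome 19 had 2. The peak of chromosome 16 at 19180828 stood alone in spite of its surroundings, with 3997 bp to the nearest peak.

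At the other extreme, a compact peak of chromosome 18 shared its joined region, 72293282 to 72316224, with 9 others, 10 peaks over 22943 bp. No other compact peak was in a region of as many. This compact peak at 72294896 to 72296587 scored 1012.77 and lay 14 bp from a peak of 5267 bp that scored 2517.58. On chromosome 8 a compact peak at 34892971 to 34894592 scored 2067.44 and led 8 peaks over 11667 bp. On chromosome 10, 2 compact peaks at 57531999 to 57533833 (1455.22) and 57533949 to 57535870 (1189.79) belonged to a region of 7 peaks over 14640 bp, in which their ranks by score were 1 and 3. The compact peak of chromosome 19 at 25018912 was also in a region of 7 peaks, over 9227 bp, and had its best score.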

How the data were processed

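H3K4me3 ChIP-seq of C6 cells gave 1 deposited peak list, called by the authors with MACS against the input per the file header, on build rn4 per the submitters' processing notes. For the MACS version, settings and aligner, nothing is given in the sources used here. The labels' protocols speak of an array experiment and an Illumina kit as well as SOLiD sequencing, a conflict that could not be settled. The deposited score was used as listed. It runs from 50 to 3233.06, where the top value is what −10 log10 gives for the smallest number above 0 in double precision, hence the reading as −10 log10 of p. Width was the end minus the start of each line, and starts are printed counting from 1. Compact and wide strong peaks were separated at 2000 bp among peaks scoring 1000 or more on chromosomes 1 to 20, and neighbours on these chromosomes included peaks of any score. Shares have exact Clopper-Pearson intervals, differences of shares Newcombe intervals and medians order-statistic intervals, all at 95%. Positions are named by rule: the 10 narrowest, the 10 highest in score, and the 5 each with the most distant nearest peak, the most peaks within 100 kb and the most peaks in the joined region, with ties broken by score, width and position. The members, lists and measures were chosen with earlier results of these data known. The code was tested on simulated peaks with planted neighbours. Python 3.11.15, NumPy 2.4.6, pandas 2.3.3, SciPy 1.17.1 and matplotlib 3.10.9 were used. Overlap with transcription start sites had been planned for gene positions on rn4 and was not analysed here.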

Additional observations from a re-analysis of the deposited data

How the results depend on the processing

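Of 55 alternatives, 28 stayed within the interval of the value (within 1.5 times for counts) and 27 moved. This tally is not a measure of stability, since some settings change the quantity itself. Wider flanks cannot lower the number of other peaks, and wider gaps cannot lower the share with a neighbour. Tighter limits of width or score cannot raise the number of compact peaks. A reversal of direction could be scored only for the difference in the share of peaks with a neighbour. That difference stayed above 0 in 10 of 10 alternatives. A minimum score of 1500 left 164 compact peaks and a wide share with a neighbour of 51.3%. A width limit of 1500 bp left 270 compact peaks, 84.8% of them with a neighbour, a difference from wide of 33.7 percentage points, and 15.2% with a joined region under that limit. A limit of 2500 bp gave 1784 peaks, 56.8%, 6.18 percentage points, 1 chromosome outside the pooled share in place of 3, and 47.1% with a joined region under that limit. With gaps of at most 500 bp, 57.5% of compact and 41.1% of wide peaks had a neighbour, and 44.4% of compact peaks had a joined region under 2000 bp. With gaps of at most 2 kb these were 70.9, 54.6 and 30.3%. With neighbours of score 100 or more only, they were 58.1, 38.7 and 42.6%. Medians of other peaks for compact and wide were 4 and 3 within 50 kb and 28 and 25 within 500 kb, and 4 and 4 for other joined regions within 100 kb. The rule on joined regions left 308. The cause of these shifts was not tested beyond the change in the limits themselves. Weighting the wide peaks to the score classes of the compact ones gave a difference of 19.4 percentage points. Chosen after seeing the data, regions with exactly 1 strong peak gave 15.2 and leaving out scores of 3100 gave 18.8. No paired analysis was possible because only 1 H3K4me3 library exists here. Start sites were not run. With no read numbers, the precision of single scores is unknown.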

Other observations

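Chromosome X was outside the rule on chromosomes. It held 9 peaks that met the limits of width and score, among 37 strong peaks, so that 24.3% were compact (Clopper-Pearson interval 11.8 to 41.2%). They were 1.43% of the 629 peaks of X (interval 0.656 to 2.70%), against 3.04% on chromosomes 1 to 20 (interval 2.84 to 3.24%). A peak within 1 kb was found for 5 of the 9 compact and 11 of the 28 wide strong peaks of X.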
